A study of Caenorhabditis elegans with 24 samples.

Results

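Injured worms collected 48 h and 96 h after blunt force trauma were compared, which follows the late course after injury within injured animals alone. The members were chosen by the time and treatment given in the labels and by the columns of the deposited table that carry them. They were 4 libraries at 48 h and 4 at 96 h, 8 of the 24 libraries of the series. The series profiled poly(A)-selected RNA of whole *C. elegans* in 6 groups of 4 libraries. The labels give the strain as wild-type N2, whereas figure legends of the study name CF512, a strain that is sterile at raised temperature, for RNA sequencing after trauma, and the expression values were not used to decide between them. All worms, the uninjured controls included, grew at 25 °C and were fed RNAi bacteria that silence *cdc-25.1*, the gene of a phosphatase of the cell cycle, which leaves the adults sterile. On day 1 of adulthood the injured worms were agitated at 8600 rpm for 16 s and the controls were handled without agitation, and RNA was taken 8, 48 and 96 h later. Each library was made from a population of worms, so a group is not a single animal. The labels number the replicates, whereas the columns do not, so a library number below gives only a column's place in its group. Nothing in the labels names separate cultures, so p-values measure the spread between these samples.

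The genes described fall into a few systems of the worm. The heat shock response is driven by the transcription factor HSF-1, which raises Hsp70 chaperones and the small heat shock proteins of the HSP-16 family when proteins misfold. Defence against bacteria relies on secreted lysozymes, C-type lectins and proteins with CUB-like domains, many of them made in the intestine. Detoxification uses cytochrome P450 enzymes, followed by glutathione S-transferases and UDP-glucuronosyltransferases, which couple foreign compounds to soluble groups. Cuticle collagens are made by the epidermis and form the outer coat of the animal.

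Expression was deposited as RPKM, read counts scaled for transcript length and for the mapped reads of the library. The depth of the 8 injured libraries, read from the steps between low RPKM values, was about 19887500 to 25762500 mapped reads, and rRNA genes took 0.443 to 1.15% of their reads. Control 48 h library 4 stood apart, with 44.5% of its reads on rRNA genes and a median log2 difference of -0.92 from the other control 48 h libraries. Within a time the injured libraries correlated at 0.972 to 0.991 (48 h) and 0.969 to 0.988 (96 h) across features, and between the times at 0.950 to 0.978. The first principal component held 46.9% of the variance and separated the 48 h libraries (-38.3 to -11.9) from the 96 h libraries (9.1 to 47.5), and on the second, with 22.9%, library 2 of each group lay apart at -22.8 and -41.6. Marks of intestine, muscle, neurons, germline and oocytes were all detected. Of 5 germline marks, between 35.4 and 231 RPKM, and 5 oocyte and eggshell marks, between 58.4 and 407 RPKM, none passed the limma test, and sperm marks stayed at or below 1.57 RPKM and embryo marks at or below 2.08 RPKM. Fewer cells of a type and less RNA per cell cannot be told apart in whole worms.

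From 48 to 96 h the injured worms gained transcripts of inducible chaperones. They lost transcripts of some immune effectors, detoxifying enzymes, transthyretin-like proteins and collagens. Of 14813 features that reached 1 RPKM in 4 or more libraries, 395 were higher at 96 h (2.67%) and 991 were lower (6.69%) at a Benjamini-Hochberg adjusted limma p under 0.05. At least a 2-fold change was seen in 197 of the 395 and in 375 of the 991. The 4 libraries of each time did not overlap in 369 of the 395 and in 739 of the 991, whereas over all features tested 1027 (6.93%) lay wholly higher at 96 h and 2021 (13.6%) wholly lower. The median log2 change over all features was -0.14 as deposited. After a further scaling of each library by its median ratio to the mean library, which brought that median to 0, 1357 features were higher (9.16%) and 1268 lower (8.56%). The number of risers thus depended on the scaling more than the number of fallers did, and all 395 risers and 934 of the 991 fallers were also called after scaling. Without control 48 h library 4, which shares the pooled estimate of the spread, the counts were 734 higher and 2080 lower. Leaving out injured 48 h library 4 gave 237 risers. The count of fallers was 448, 601 and 469 without injured 48 h libraries 2, 3 and 4, and 552 and 354 without injured 96 h libraries 3 and 4.

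Heat shock genes led the rises. *hsp-70*, the strictly inducible Hsp70 chaperone (chromosome I, 9320325 to 9322519 in ce11), measured 23.1, 40.7, 25.7 and 22.6 RPKM at 48 h and 135, 258, 209 and 199 RPKM at 96 h. The 2 sets of libraries did not overlap, and library 2 was the highest of its group at both times. The largest rises, falls and differences were named only from features without overlap, so in those genes its absence adds no support. The means were 28 ± 8.55 and 200 ± 50.4 RPKM (SD, n = 4), a 7.15-fold higher mean, and the log2 change was 2.82 ± 0.23 (SE, limma adjusted p = 1.76e-10). At 8 h the injured worms had a mean of 52.9 RPKM, so the 48 h libraries all lay below the mean of the first time and the 96 h libraries above it. The control mean at 8 h was 4.03 RPKM. In the controls the log2 change from 48 to 96 h was 0.75 (28.3 to 46.4 RPKM, adjusted p = 0.0296), or 0.40 after scaling (adjusted p = 0.148), and the difference between injured worms and controls was 2.07 ± 0.33 (adjusted p = 8.59e-05).

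The *F44E5.4* and *F44E5.5* genes, an Hsp70 pair whose members neighbour each other on chromosome II (11757107 to 11761861), rose in the same way. *F44E5.4* measured 424, 625, 433 and 399 RPKM at 48 h and 1946, 3168, 2564 and 2593 RPKM at 96 h. Every 96 h library was above every 48 h library, as the rule for the most positive differences required, with a log2 change of 2.45 ± 0.22 (adjusted p = 1.67e-09). From 48 to 96 h the controls stayed level for this gene, at means of 392 and 395 RPKM. Their mean at 8 h was 23.1 RPKM. The difference of 2.41 ± 0.32 (adjusted p = 6.05e-06) was among the most positive in the data. *F44E5.5* rose from 99.5 ± 41.8 to 530 ± 165 RPKM (SD, n = 4), a log2 change of 2.46. These 2 genes are close copies, and how the authors assigned reads shared by such copies is not stated, so their separate levels are uncertain.

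The *hsp-16* genes encode small heat shock proteins that hold unfolded proteins in solution and lie in head-to-head pairs. *hsp-16.11* measured 705, 1337, 853 and 591 RPKM at 48 h and 3412, 5993, 4743 and 5164 RPKM at 96 h, the highest level of the family. The groups did not overlap, as the rule for the largest rises required. The log2 change was 2.51 ± 0.25 (adjusted p = 9.57e-09) against 0.62 in the controls (568 to 830 RPKM, adjusted p = 0.0919). *hsp-16.41* rose 2.71 ± 0.26 on the log2 scale, from 159 ± 77.5 to 998 ± 285 RPKM (SD, n = 4), and its neighbour *hsp-16.2* rose 2.56 ± 0.29, from 213 ± 85.4 to 1230 ± 347 RPKM. Both lie on chromosome V, *hsp-16.2* at 1804334 to 1804957 and *hsp-16.41* at 1805178 to 1805875. *hsp-16.48* and *hsp-16.49* had means of 478 and 477 RPKM at 48 h and of 2620 and 2610 RPKM at 96 h, and differed by at most 3.47% in any of the 8 libraries. They are near-identical copies, as are *hsp-16.1* and *hsp-16.11*, and *hsp-16.1* did not exceed 0.82 RPKM in these 8 libraries, so the row of *hsp-16.11* may hold reads of both. For 5 of these genes the difference from the controls passed the test, between 1.81 (*hsp-16.2*) and 2.06 (*hsp-16.41*).

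Of 13 small heat shock genes tested, 7 rose and none fell, with a median log2 change of 1.47 against -0.14 over all features. The 7 include the *hsp-16* risers above, with the near-identical *hsp-16.48* and *hsp-16.49* counted apart although they are hardly separate measurements. The other 2 risers were *hsp-12.3*, from 23.3 to 62.5 RPKM (1.47), and *hsp-12.6*, a small heat shock gene activated by the FOXO factor DAF-16, from 17.6 to 85.1 RPKM (2.39). *hsp-12.6* rose about as much in the controls, from 2.75 to 17 RPKM (2.56), and the difference of -0.16 did not pass the test (adjusted p = 0.908). The count of 7 was unchanged when each injured library was left out in turn, and after scaling it was 8 higher and 1 lower, *hsp-17* having joined the risers and *hsp-12.2* being the one lower. *hsp-25*, *hsp-43* and *hsp-12.2* did not pass the test as deposited (log2 changes of -0.44, -0.20 and -0.49).

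Of 16 genes for Hsp70, Hsp90 and their partners, 6 rose and none fell, with a median of 0.43, and after scaling 11 rose. *hsp-110*, an exchange factor for Hsp70, rose from 172 ± 9.93 to 490 ± 113 RPKM (SD, n = 4), a log2 change of 1.48 ± 0.21 (adjusted p = 6.94e-06), while the controls changed by 0.36 (110 to 138 RPKM, adjusted p = 0.254). *daf-21*, the cytosolic Hsp90, rose from 1900 to 3660 RPKM (0.95) and *dnj-13*, a DnaJ co-chaperone, to 178 RPKM (0.66) from libraries of 100.8 to 121.5 RPKM. The controls rose in these 2 genes as well (0.73 and 0.71), and the differences of 0.22 and -0.05 did not pass the test as deposited. After scaling they were 0.73 (adjusted p = 0.00402) and 0.45 (adjusted p = 0.0208). In the unfolded protein response of the endoplasmic reticulum 0 of 25 genes rose by limma (0 also at an unadjusted p under 0.05, and 3 after scaling) and 1 fell, and its Hsp70 *hsp-4* stood at 209 and 224 RPKM (log2 change 0.10).

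**Figure D1:**
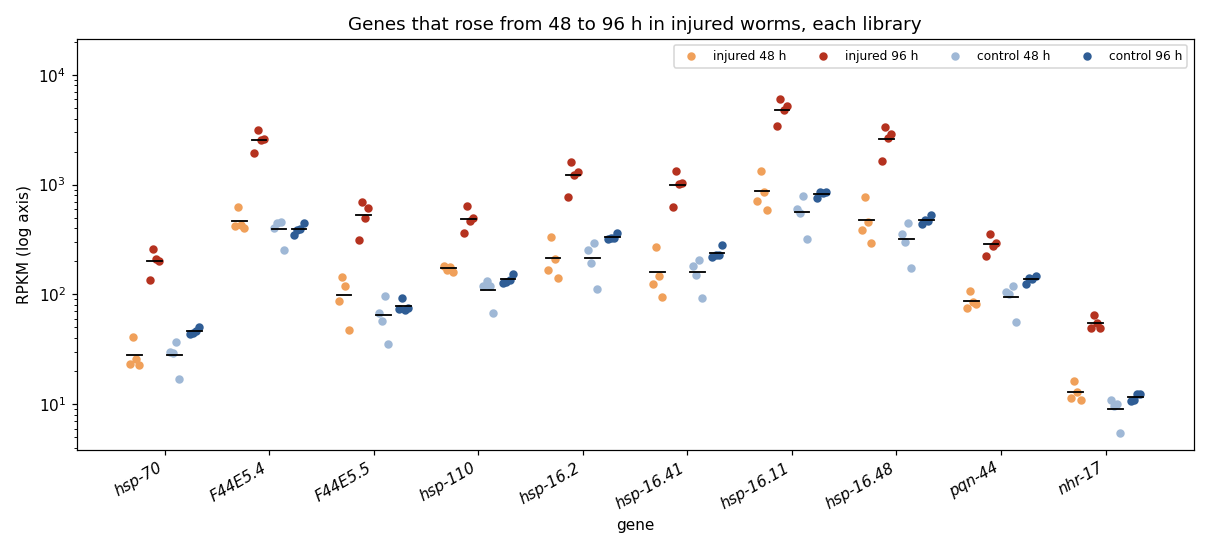
RPKM on a log axis of 10 genes that rose, with a point for each library and a black line at the mean of the 4 libraries of each group. Injured libraries are orange at 48 h and red at 96 h, control libraries light and dark blue. For every gene the 4 red points lie above the 4 orange points, and the lowest light blue point is control 48 h library 4. The rules for the largest rises and differences required this separation of all but *hsp-110*, *pqn-44* and *nhr-17*.

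Genes outside the chaperone families rose by similar amounts. *K04H4.5* (chromosome III, 9359360 to 9361333) measured 7.23, 9.79, 7.26 and 6.60 RPKM at 48 h and 43.7, 61.6, 44.5 and 58.2 RPKM at 96 h. The absence of overlap was a condition of its choice, and its log2 change was 2.67 ± 0.26 (adjusted p = 6.74e-09). It was near the floor at 8 h, with a mean of 0.422 RPKM in injured worms. The neighbouring *flp-25*, a neuropeptide gene within 10 kb, rose as well, from 21 to 52.5 RPKM (1.3), and so it did in the controls (1.11).

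*Y53F4B.7* and the pseudogene *Y53F4B.8*, neighbours on chromosome II (14992898 to 14993403 and 14995045 to 14997446), rose together. *Y53F4B.7* went from 2.65 ± 0.672 to 18.3 ± 4.76 RPKM (SD, n = 4; log2 change 2.56) and *Y53F4B.8* from 0.692 ± 0.38 to 5.65 ± 0.894 RPKM (2.40). In the controls they stayed near 2 RPKM or below, with means of 1.52 and 2.19 RPKM and of 0.688 and 0.642 RPKM. The differences were 2.12 and 2.45, both past the threshold.

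The change also differed from that of the controls for *F13E9.19*, from 2.35 ± 1.46 to 9.85 ± 1.48 RPKM (SD, n = 4; difference 2.49, adjusted p = 0.000878), and for *ZK228.4*. *ZK228.4* measured 10.95, 21.4, 11.35 and 10.2 RPKM at 48 h and 28.1, 38.03, 32.9 and 25.24 RPKM at 96 h in injured worms, while the controls fell from 18.1 to 7.56 RPKM. Its log2 changes of 1.22 (adjusted p = 0.00216) and -1.10 (adjusted p = 0.00459) thus had opposite signs, and the difference was 2.33 ± 0.37 (adjusted p = 8.28e-05). *nhr-17*, an orphan nuclear receptor gene, rose from 12.9 ± 2.37 to 54.9 ± 7.36 RPKM (2.06; controls 9.01 to 11.7), and *pqn-44*, which encodes a glutamine- and asparagine-rich protein, from 87.7 ± 13.6 to 287 ± 54 RPKM (1.70; controls 95.6 to 138). The differences were 1.66 and 1.12, with adjusted p = 0.000325 and 0.011. The noncoding *linc-6* (chromosome X, 1982710 to 1982883) rose from 58.3 ± 19.3 to 316 ± 56 RPKM (2.47), but the controls rose too, from 10.5 to 24 RPKM (1.27), and the difference of 1.2 passed the test only after scaling (adjusted p = 0.161 as deposited and 0.0137 scaled).

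Ribosomal protein transcripts lay higher at 96 h, with all 77 log2 changes above 0, though few passed the test as deposited. Of 77 ribosomal protein genes 5 rose and none fell as deposited, and the 4 libraries of the 2 times did not overlap in 63 of them, against 6.93% of all features. The median log2 change was 0.42, and 0.57 after scaling, when 72 rose. *rpl-19* measured 2142, 2385, 2080 and 2001 RPKM at 48 h and 3468, 3635, 3523 and 3473 RPKM at 96 h, with a log2 change of 0.71 ± 0.18 (adjusted p = 0.0106). *rpl-10* rose from 2940 ± 367 to 4670 ± 309 RPKM (SD, n = 4; 0.68) and *rps-27* from 1940 ± 373 to 3610 ± 553 RPKM (0.90), calls that were lost without injured 48 h library 4 (adjusted p = 0.103 and 0.108), injured 96 h library 3 (0.0654 and 0.0525) or injured 96 h library 4 (0.0747 and 0.0913). The call of *rpl-10* was also lost without injured 48 h library 3 (adjusted p = 0.0557). The count of 5 became 49 without control 48 h library 4, and 2 and 1 without injured 48 h libraries 3 and 4 and 1 without injured 96 h library 3 or 4. The controls moved in the same direction, with 11 of 77 higher and a median of 0.50 as deposited, or 3 higher and 0.15 after scaling, and the difference from the controls passed for 0 genes as deposited and for 37, all positive, after scaling.

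Of 33 aminoacyl-tRNA synthetase genes 3 rose, 6 without control 48 h library 4 and 14 after scaling. Over all features 2.67% rose, or 9.16% after scaling. *sars-1*, the seryl-tRNA synthetase, rose from 373 ± 52.7 to 748 ± 45.6 RPKM (SD, n = 4; log2 change 1.01), followed by *yars-1* (0.90) and *lars-1* (0.60). Of 56 histone genes 6 rose and none fell, or 11 rose and 2 fell after scaling, and in the controls 19 rose, or 7 after scaling. Those that rose in injured worms included *his-72*, a replication-independent histone H3.3, from 593 ± 43.1 to 1100 ± 127 RPKM (0.88) and the histone H2B gene *his-62* from a mean of 5.49 RPKM to libraries of 11.34 to 11.54 RPKM (1.00). The histone count was 2 to 3 without injured 48 h library 3 or 4 or injured 96 h library 2, 3 or 4, and 10 without control 48 h library 4. Of 28 autophagy genes 3 rose, *sqst-1*, the p62 adaptor (285 to 557 RPKM, 0.96), *bec-1* (78.7 to 133 RPKM, 0.76) and *atg-7* (55.4 to 94.2 RPKM, 0.76), or 10 after scaling. That count was 1 without injured 48 h library 4 and 5 without control 48 h library 4. The adjacent protein disposal system, the proteasome, had 0 of 32 genes called by limma, 0 at an unadjusted p under 0.05 and 2 higher after scaling.

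**Figure D2:**
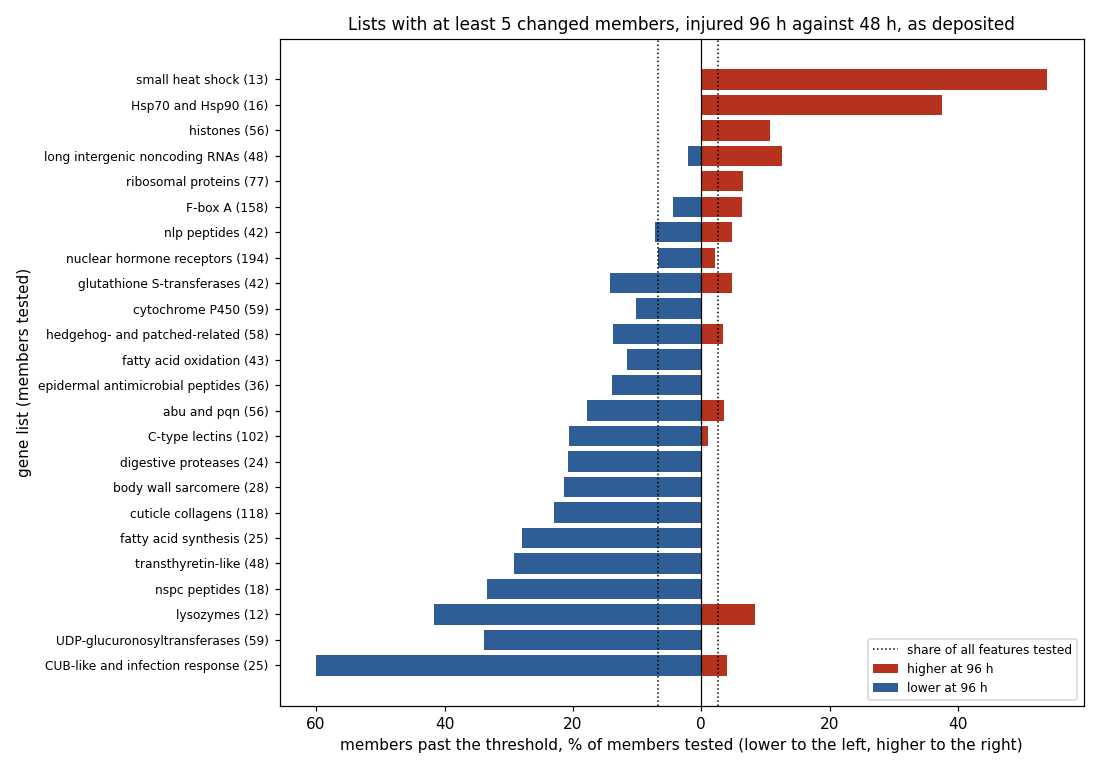
Percentage of the tested members of each gene list that were lower (blue, to the left) or higher (red, to the right) at 96 h in injured worms, for lists with at least 5 changed members, with the number tested in brackets. Dotted lines mark the share of all features tested, 6.69% lower and 2.67% higher. The 2 chaperone lists hold the highest shares of risers, and CUB-like genes, lysozymes, UDP-glucuronosyltransferases and nspc peptides the highest shares of fallers.

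Transcripts of several immune effector families fell. Among all features tested 6.69% fell and 2.67% rose, or 8.56% and 9.16% after scaling. Of 25 genes with CUB-like domains or known from infection responses, 15 fell and 1 rose, with a median log2 change of -0.89. After scaling 15 were lower and 3 higher, with a median of -0.74. *C17H12.8*, a CUB-like gene (chromosome IV, 6818703 to 6820575), measured 93.0, 100.76, 103.69 and 156 RPKM at 48 h and 37.5, 30.8, 17.5 and 14.1 RPKM at 96 h. The groups did not overlap, as the rule for the largest falls required, and the log2 change was -2.24 ± 0.25 (adjusted p = 1.9e-07). The controls held 272 and 201 RPKM, a change of -0.41 that did not pass the test, and the difference was -1.83 ± 0.36 (adjusted p = 0.00106). Of 5 intestine markers 1 fell by limma, *vha-6* (48.7 to 30.5 RPKM), and all 5 log2 changes were below 0 (-0.70 to -0.14). Their summed level was 328 to 644 RPKM at 48 h and 246 to 537 RPKM at 96 h. Of 22 intestinal identity genes 2 fell and none rose, a share of fallers near that of all features. Their log2 changes were below 0 in 20, with a median of -0.37 against -0.14 over all features. The part of these changes in the falls of other intestinal genes was not tested. Of 6 features tested within 10 kb of *C17H12.8* 3 fell as well, the family member *C17H12.6* among them (20.2 to 8.17 RPKM).

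*F55G11.4* fell from 101 ± 41.7 to 23.6 ± 5.6 RPKM (SD, n = 4; log2 change -2.02, adjusted p = 8.62e-06), far under its control means of 537 and 659 RPKM. *dod-22*, a CUB-like gene downstream of DAF-16 (chromosome IV, 12965374 to 12967392), fell from 7.16 ± 1.41 to 1.36 ± 0.972 RPKM (-2.17). In the controls it fell as well, from 16.6 to 4.81 RPKM (-1.68), and the difference of -0.49 did not pass the test. *T24B8.5*, a ShK toxin-like gene regulated by the p38 kinase pathway, fell from 288 to 152 RPKM (-0.98), and *F35E12.5* from 146 to 51 RPKM (-1.56). The single riser, *C32H11.9*, was near the floor at 0.222 and 1.02 RPKM. The count of fallers was 9 without injured 48 h library 4. In the controls 8 members fell and 2 rose, with a median of -0.23. After scaling 12 fell there and 1 rose, with a median of -0.58. The difference was negative for 7 and positive for 2, or negative for 4 and positive for 2 after scaling. The median difference of the list after scaling was 0.03.

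Most of the lysozymes that changed fell. Of 12 tested, 5 fell and 1 rose in injured worms, with the same count after scaling. *lys-1* measured 285, 445, 346 and 437 RPKM at 48 h and 143, 196, 119 and 79.2 RPKM at 96 h, a log2 change of -1.54 ± 0.24 (adjusted p = 3.52e-05) without overlap, and *lys-2* fell from 86.2 ± 26.5 to 38.5 ± 14.5 RPKM (SD, n = 4; -1.18). *ilys-3*, an invertebrate-type lysozyme that acts on Gram-positive bacteria, measured 31.6, 33.5, 35.2 and 59.7 RPKM at 48 h and 23.3, 17.1, 10.6 and 14.5 RPKM at 96 h. Its neighbour *ilys-2* (chromosome IV, 2467678 to 2468879) fell from 46.1 to 19.6 RPKM (-1.20). In the controls both rose, *ilys-3* from 16.8 to 79.7 RPKM (2.34, adjusted p = 1.23e-06) and *ilys-2* from 21.5 to 75.5 RPKM (1.85, adjusted p = 2.08e-05). Injured worms thus had the higher mean at 48 h and the lower at 96 h, and the differences were -3.61 ± 0.41 (adjusted p = 4.43e-07) and -3.05 ± 0.39 (adjusted p = 3.69e-06). The riser was *lys-4*, from 10.9 to 20.8 RPKM, which rose in the controls as well (1.53). Its call was lost without injured 48 h library 1 or 3 or injured 96 h library 1, 2 or 3. In the controls 6 lysozyme genes rose and 2 fell, and the difference was negative for 6.

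Of 102 C-type lectin genes 21 fell and 1 rose, with a median of -0.42 (20 and 3 after scaling, median -0.30). *clec-41* fell from 200 ± 36.3 to 59.6 ± 18.8 RPKM (SD, n = 4; log2 change -1.77, adjusted p = 3.98e-06), whereas the controls held 317 and 365 RPKM (0.26), and the difference of -2.03 passed the test. *clec-265* fell by the same amount, from 5.42 to 1.27 RPKM, and in the controls it fell by 1.69 on the log2 scale. The count of fallers was 13 without injured 48 h library 2, 12 and 11 without injured 96 h libraries 3 and 4, and 38 without control 48 h library 4. In the controls 25 lectin genes rose and 4 fell, or 16 and 10 after scaling. The difference was negative for 36 and positive for 0, or negative for 18 and positive for 2 after scaling. Without control 48 h library 4 it was negative for 25 and positive for 1. Over all features 14.3% had a negative difference, or 7.09% after scaling.

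Among 36 antimicrobial peptide genes, 5 fell and none rose, where 6.69% of all features fell and 2.67% rose. *abf-4*, an antibacterial factor, fell from 4.66 ± 1.63 to 0.692 ± 0.479 RPKM (SD, n = 4; -2.15, adjusted p = 5.17e-06), *abf-5* from 20.5 to 8.42 RPKM (-1.26) and *fipr-1* from 35.5 ± 8.04 to 13 ± 4.4 RPKM (-1.45). *abf-5* rose in the controls, to a mean of 31.7 RPKM (1.54), and its difference was -2.81 (adjusted p = 2.86e-06). For *fipr-1* the controls fell too (-0.93), and the difference did not pass the test. By limma 0 of 21 caenopore genes, which encode other antibacterial peptides, fell and 1 rose, as deposited and after scaling. Their median log2 change was -0.32, with 3 lower at an unadjusted p under 0.05.

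More detoxifying enzymes fell than rose. The same held over all features as deposited (6.69% lower and 2.67% higher), though not after scaling (8.56% and 9.16%). Of 59 UDP-glucuronosyltransferase genes 20 fell and none rose, with a median log2 change of -0.53, and after scaling 16 fell and 5 rose, with a median of -0.39. *ugt-13* measured 21.7, 28.3, 22.7 and 21.9 RPKM at 48 h and 11.7, 17.98, 8.43 and 8.30 RPKM at 96 h, a log2 change of -1.06 ± 0.24 (adjusted p = 0.00311). *ugt-2* fell from 11.7 to 5.30 RPKM (-1.11) and *ugt-46* from 10.1 to 4.71 RPKM (-1.04). The count of fallers was 7, 10 and 8 without injured 48 h libraries 2, 3 and 4 and 10 and 5 without injured 96 h libraries 3 and 4. The differences from the controls were -1.54, -1.34 and -0.58, of which that of *ugt-46* did not pass the test.

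*gst-4*, a glutathione S-transferase controlled by the oxidative stress factor SKN-1, measured 22.02, 43.4, 29.02 and 25.5 RPKM at 48 h and 6.84, 11.54, 7.49 and 9.11 RPKM at 96 h. The groups did not overlap, and the log2 change was -1.70 ± 0.26 (adjusted p = 4.01e-05) against -0.26 in the controls. *gst-13* fell from 25.7 RPKM to libraries of 9.14 to 12.7 RPKM (-1.15), while *gst-1* rose from 211 to 383 RPKM (0.86). Of 42 glutathione S-transferase genes 6 fell and 2 rose, or 7 and 5 after scaling, and 3 fell without injured 96 h library 4 and 10 without control 48 h library 4. Of 59 cytochrome P450 genes 6 fell and none rose (9 and none after scaling), among them *cyp-34A2* (6.73 to 2.61 RPKM, -1.3) and *cyp-34A8* (16.3 to 7.90 RPKM, -1.08). The P450 count was 12 without injured 96 h library 2 or without control 48 h library 4, and 3 without injured 96 h library 4. Median log2 changes were -0.29 for glutathione S-transferases and -0.32 for P450 genes, against -0.14 over all features. Of all features 6.69% fell and 2.67% rose.

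**Figure D3:**
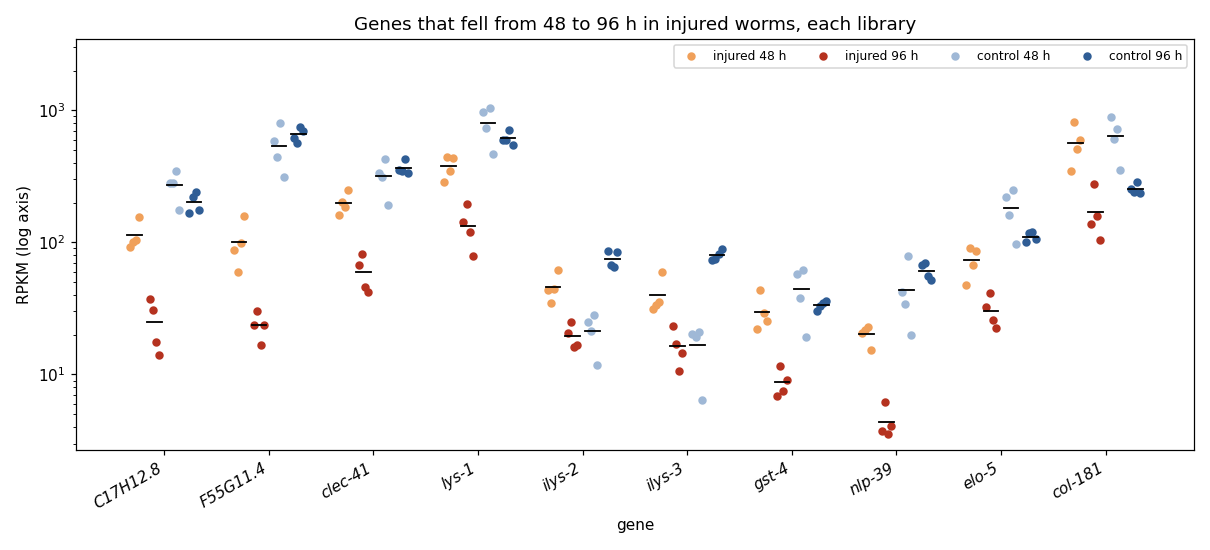
RPKM on a log axis of 10 genes that fell, with a point for each library and a black line at the mean of the 4 libraries of each group. Colours mark injured 48 h (orange), injured 96 h (red), control 48 h (light blue) and control 96 h (dark blue). The 4 red points lie below the 4 orange points for each gene, and for *ilys-2* and *ilys-3* the controls moved the other way, to means of 75.5 and 79.7 RPKM. For *C17H12.8*, *ilys-3* and *nlp-39* the absence of overlap was a condition of their choice.

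Transthyretin-like genes, a nematode family of small secreted proteins, moved apart from the controls. Of 48 tested 14 fell and none rose, with a median of -0.54 (15 fell after scaling, median -0.39). In the controls 20 rose and none fell, or 15 rose and 3 fell after scaling. The difference was negative for 34 genes as deposited, 19 after scaling and 22 without control 48 h library 4, and positive for 0. Over all features 14.3% had a negative difference and 0.662% a positive one, or 7.09% and 7.85% after scaling. *ttr-45* fell from 2020 ± 318 to 1270 ± 202 RPKM (SD, n = 4; log2 change -0.67, adjusted p = 0.0402), whereas the controls went from 1710 to 3630 RPKM (1.17). *ttr-42* (33.8 to 13.7 RPKM, -1.34) and *ttr-44* (22.4 to 10.6 RPKM, -1.07) also fell, and their differences of -0.78 and -0.62 did not pass the test. The count of fallers was 5, 7 and 7 without injured 48 h libraries 2, 3 and 4, and 7, 6 and 4 without injured 96 h libraries 1, 3 and 4.

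Cuticle collagens fell in injured worms, and fell further in the controls. Of 118 tested 27 fell and none rose, with a median of -0.42 (26 and 1 after scaling, median -0.28). *col-181* measured 350, 815, 509 and 592 RPKM at 48 h and 137, 279, 158 and 105 RPKM at 96 h, without overlap, a log2 change of -1.77 ± 0.26 (adjusted p = 2.67e-05). *col-101* fell from 378 ± 145 to 109 ± 45.8 RPKM (SD, n = 4; -1.80) and *col-179* from 19.3 ± 7.34 to 3.92 ± 1.79 RPKM (-2.15). In the controls 58 fell and 3 rose, with a median of -1.04 (73 and 3 after scaling, median -1.38). For these 3 genes the controls fell by 1.26, 1.03 and 1.6 on the log2 scale and no difference passed the test. Over the family the difference was positive for 14 genes and negative for 5, or positive for 45 and negative for 2 after scaling. The median level of the list in control 48 h libraries was 3.87, 2.83, 2.93 and 1.83 on the log2(RPKM + 0.5) scale, against 1.88 to 2.11 in injured 48 h libraries. Of 4 epidermis markers tested 2 fell, *col-19*, itself a collagen (76.1 to 38.9 RPKM), and *elt-3*, an epidermal GATA factor (24.7 to 13.6 RPKM). The sum over that list was 68.2 to 135 RPKM at 48 h and 39.6 to 74.9 RPKM at 96 h, and its part in the result was not tested. The count of injured fallers was 16 without injured 48 h library 4 and 17 and 15 without injured 96 h libraries 1 and 4.

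Some genes of the body wall contractile apparatus and of basement membranes fell. Over all features 6.69% fell and 2.67% rose, or 8.56% and 9.16% after scaling. Of 28 sarcomere genes 6 fell and none rose (5 and 3 after scaling), among them *mlc-1*, a regulatory myosin light chain (80.6 to 46.9 RPKM, -0.79), and *lev-11*, tropomyosin (134 to 80.7 RPKM, -0.74). The marker list for body wall muscle had 0 of 5 genes called by limma. The sarcomere count was 0 without injured 48 h library 2 or 4 or injured 96 h library 1 or 4, 2 without injured 48 h library 3 and 3 without injured 96 h library 3, and the median was -0.18. Of 23 basement membrane genes 4 fell, with *mig-17*, a secreted metalloprotease, the furthest (14.7 to 7.70 RPKM, -0.90). That count was 1 without injured 48 h library 2, 3 or 4 or injured 96 h library 3 or 4, 2 without injured 96 h library 1, and 9 without control 48 h library 4.

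Some enzymes of lipid metabolism and digestion fell. Of 25 fatty acid synthesis genes 7 fell and none rose, with a median of -0.40 (7 fell after scaling, median -0.25). *elo-5* and *elo-6*, neighbouring elongases that make branched-chain fatty acids (chromosome IV, 5374616 to 5377117 and 5386629 to 5388559), fell from 73 ± 19.7 to 30.4 ± 8.2 RPKM (SD, n = 4; -1.24) and from 96.9 ± 25.7 to 42.4 ± 11.7 RPKM (-1.18). The controls moved by -0.63 and -0.39, and the differences did not pass the test. The count was 4 and 3 without injured 48 h libraries 2 and 4, and 3 without injured 96 h library 4.

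Of 43 fatty acid oxidation genes 5 fell and none rose, or 5 and 2 after scaling. Their median was -0.11, or 0.04 after scaling. Over all features 6.69% fell and 2.67% rose, or 8.56% and 9.16% after scaling. *hacd-1*, a hydroxyacyl-CoA dehydrogenase, fell from 64.8 ± 14.2 to 21.5 ± 9.09 RPKM (SD, n = 4; -1.65) and *ech-7*, an enoyl-CoA hydratase, from 32.5 RPKM to libraries of 8.65 to 16.14 RPKM (-1.44). *acs-2*, an acyl-CoA synthetase raised by fasting, fell from 23.1 to 9.90 RPKM (-1.22) while the controls rose from 3.95 RPKM (1.32), a difference of -2.54 (adjusted p = 0.000298). The count was 8 without control 48 h library 4. Of 24 digestive protease genes 5 fell and none rose (5 and 1 after scaling), among them *cpr-4*, a cathepsin B (187 to 95.4 RPKM, -1.02), and *asp-6*, an aspartyl protease (847 to 477 RPKM, -0.84). The protease count was 8 without injured 48 h library 1 or control 48 h library 4, 2 and 1 without injured 48 h libraries 2 and 4, and 3, 3 and 1 without injured 96 h libraries 1, 3 and 4. The call of *asp-6* was lost without injured 48 h library 4 (adjusted p = 0.0645) or injured 96 h library 4 (adjusted p = 0.0995). The peptide transporter *pept-1* fell from 10.7 to 4.00 RPKM (-1.32).

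**Figure D4:**
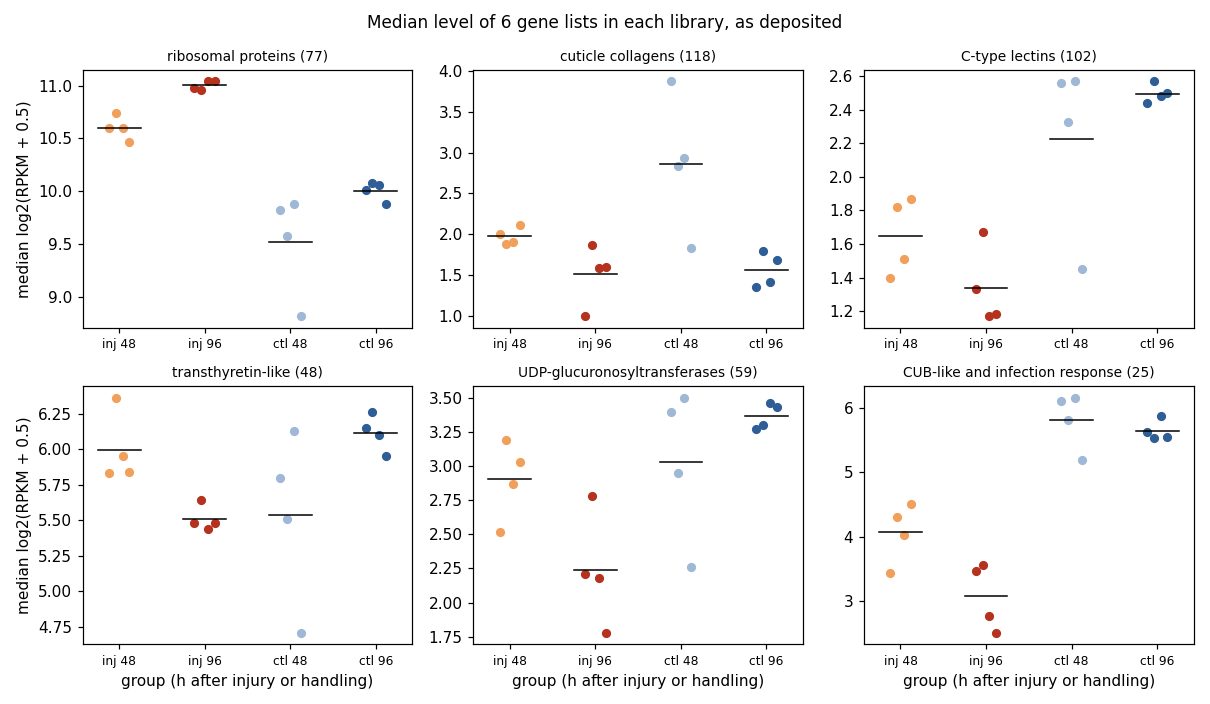
Median over the members of 6 gene lists of log2(RPKM + 0.5) in each library, with the number of members tested in brackets and black lines at the mean of the 4 libraries. Ribosomal proteins lie higher at 96 h than at 48 h in every injured library, and for the collagens the control 48 h libraries span 1.83 to 3.87.

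Several of the largest falls were in short genes without an assigned role here. *C35A5.10* (chromosome V, 10504193 to 10505410) measured 5.12, 2.78, 5.76 and 9.07 RPKM at 48 h and 0.66, 0.23, 0.46 and 0.79 RPKM at 96 h, a log2 change of -2.51 ± 0.35 (adjusted p = 2.45e-05), and in the controls it fell too (7.45 to 2.69 RPKM, -1.18). *C54C8.12* fell from 24.7 ± 3.13 to 4.55 ± 1.01 RPKM (SD, n = 4; -2.34), and *nlp-39*, a neuropeptide-like gene within 10 kb of it on chromosome I, from 20.1 ± 3.38 to 4.40 ± 1.24 RPKM (-2.09). In the controls neither passed the test (65.4 to 87.3 RPKM and 43.8 to 60.9 RPKM), and the differences of -2.90 and -2.72 did.

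A run of genes on chromosome V (*C01G10.5* at 15089076 to 15089538) fell together. *C01G10.6* fell from 7.49 ± 3.79 to 0.888 ± 0.66 RPKM (SD, n = 4; -2.47), *C01G10.5* from 15 ± 5.09 to 4.17 ± 4.12 RPKM (-2.3) and *C01G10.4* from 19.1 ± 5.37 to 6.21 ± 4.3 RPKM (-1.84). Of the 10 features tested within 10 kb of *C01G10.5*, 5 fell and none rose. All 3 were near the floor in injured worms at 8 h, at means of 0.19 to 0.382 RPKM. The call of *C01G10.5* was lost without injured 48 h library 3 or 4 (adjusted p = 0.0699 and 0.0839) or injured 96 h library 2 or 3 (0.0652 and 0.0842). That of *C01G10.4* was lost without injured 48 h library 1, 3 or 4 (0.0602, 0.0829 and 0.0953) or injured 96 h library 3 (0.0728). *C08E3.1* on chromosome II was largely a feature of injured worms at 48 h, with 29.8 ± 8.55 RPKM then and 6.34 ± 2.0 RPKM at 96 h (-2.15), against 0.248 and 1.34 RPKM in the controls and 1.33 RPKM in injured worms at 8 h. Its call was lost with a pseudocount of 0.1 (adjusted p = 0.174), as were those of *C01G10.5* and *C01G10.4* (0.0772 and 0.1).

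The nspc genes encode short nematode-specific peptides and were listed after their values were seen. Of 18 tested 6 fell and none rose, with a median of -0.89, and 14 fell without control 48 h library 4. The count was 1, 1 and 2 without injured 48 h libraries 2, 3 and 4, and 3, 13, 2 and 1 without injured 96 h libraries 1, 2, 3 and 4. *nspc-5* on chromosome X fell from 7.05 ± 1.4 to 1.26 ± 0.414 RPKM (SD, n = 4; -2.11) and *nspc-12* from 25.0 ± 14.1 to 6.22 ± 2.22 RPKM (-1.81), whereas control means were 29.7 and 25.5 RPKM and 63.6 and 90.5 RPKM. The call of *nspc-12* was lost without injured 48 h library 2 or 3 (adjusted p = 0.0686 and 0.0515) or injured 96 h library 1 or 4 (0.0535 and 0.0636).

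The change with time differed from that of the controls for many features. In the controls 1728 features were higher at 96 h (11.7%) and 187 lower (1.26%), with a median of 0.26, and after scaling 985 were higher (6.65%) and 1584 lower (10.7%). The difference of the 2 changes was positive for 98 features (0.662%) and negative for 2111 (14.3%), or positive for 1163 (7.85%) and negative for 1050 (7.09%) after scaling. The rRNA-rich control 48 h library 4 enters the control change and the difference, and without it 963 features changed in the controls and 1679 in the difference. Of the 395 risers in injured worms 102 also rose in the controls and 68 had a positive difference, or 628 of the 1357 called after scaling. Of the 991 fallers 74 also fell in the controls, 134 rose there and 651 had a negative difference, or 526 of the 1268 called after scaling. The injured change is one term of the difference, so these counts are not independent of each other.

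Among features called in injured worms, without overlap and with a mean of at least 5 RPKM, the most negative difference belonged to *Y60C6A.2* (chromosome V, 4785011 to 4785433). It measured 12.45, 11.44, 12.59 and 13.57 RPKM at 48 h and 5.55, 1.73, 2.44 and 1.80 RPKM at 96 h in injured worms, while the controls went from 0.66, 0.32, 1.16 and 0.56 RPKM to 3.52, 4.93, 2.85 and 2.95 RPKM. The injured libraries were thus above every control at 48 h, and 3 of the 4 lay below every control at 96 h. The difference was -3.88 ± 0.50 (adjusted p = 1.29e-05). *C54F6.15* went from 126 ± 17.1 to 51.9 ± 5.86 RPKM (SD, n = 4) in injured worms and from 26.4 to 101 RPKM in controls, a difference of -3.30. Its fall in injured worms lost the call without injured 48 h library 4 (adjusted p = 0.0618) or injured 96 h library 4 (adjusted p = 0.0682). *pqn-31* fell from 24.2 to 9.43 RPKM and rose in the controls to 22.8 RPKM (difference -2.42).

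**Figure D5:**
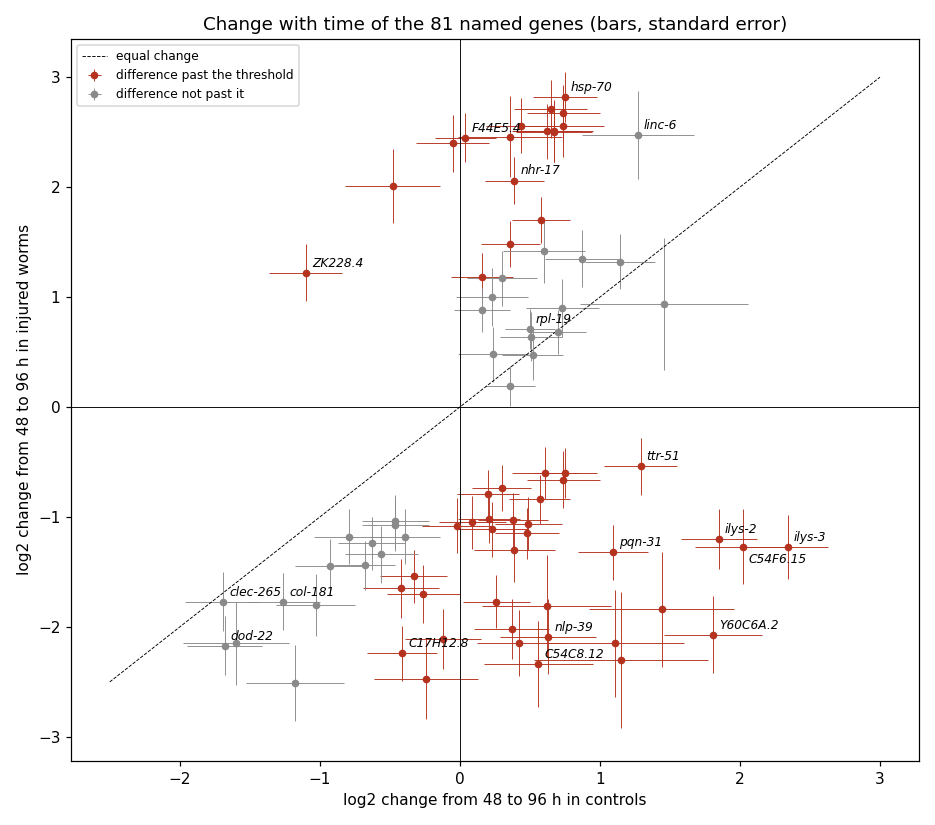
log2 change from 48 to 96 h of the 81 named genes in injured worms (vertical axis) against controls (horizontal axis), as deposited, with standard errors as bars. Red points passed the test of the difference and grey points did not, and the dashed line marks equal change. *hsp-70* lies at 2.82 in injured worms and 0.75 in controls, *ilys-3* at -1.27 and 2.34, and *dod-22* near the line at -2.17 and -1.68.

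Of the 5 most abundant transcripts only *rpl-10* passed the test. *far-2*, a fatty acid and retinol binding protein, had means of 7260 and 4840 RPKM (log2 change -0.60, adjusted p = 0.103), *C08F11.11* 4610 and 2860 RPKM (-0.66, adjusted p = 0.102) and *ttr-51* 4030 and 2800 RPKM (-0.54, adjusted p = 0.21), none past the threshold. The libraries of the 2 times overlapped for these 3 genes. *eef-1A.1*, an elongation factor, stood at 4170 and 4760 RPKM (0.19, adjusted p = 0.624). In the controls *ttr-51* rose from 3800 to 8540 RPKM (1.29), and the differences were -1.34 for *far-2*, -1.40 for *C08F11.11* and -1.83 for *ttr-51*, all past the threshold. Without control 48 h library 4 the falls of *far-2* and *C08F11.11* in injured worms passed (adjusted p = 0.0317 and 0.0385).

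Of 19 eggshell and fertilization genes 2 fell, as deposited and after scaling, near the share of all features (6.69% lower, or 8.56% after scaling). They were *perm-2*, from 2260 to 1280 RPKM (log2 change -0.85), and *perm-4* (-0.77), which encode eggshell proteins. In 5 other lists of germline, oocyte and cell cycle genes none was called. By limma 0 of 22 oocyte RNA-binding protein genes, 0 of 29 P granule and germline genes, 0 of 31 meiosis genes, 0 of 34 DNA replication genes and 0 of 39 cell cycle genes passed the test. At an unadjusted p under 0.05 there was 1 higher and 1 lower oocyte gene, 1 higher cell cycle gene and 0 of the other 3 lists, and after scaling 1 oocyte and 1 cell cycle gene were higher. Their medians lay between -0.15 and -0.07. The 6 vitellogenin genes, which encode yolk proteins, had a median of -0.66 with 0 called by limma, 2 lower at an unadjusted p under 0.05 and 0 after scaling. *vit-2* ranged from 1296 to 2967 RPKM at 48 h and from 671 to 1490 RPKM at 96 h.

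Genes that the study followed were measured as well. *fos-1*, an immediate-early transcription factor gene, stood at 45.1, 45.9, 46.9 and 45.2 RPKM at 48 h and 69.3, 82.3, 68.9 and 67.1 RPKM at 96 h. The groups did not overlap (exact permutation p = 0.0286, the smallest that 4 against 4 can give), whereas the limma test gave a log2 change of 0.64 ± 0.22 with adjusted p = 0.0596. The call was past the threshold after scaling (0.79, adjusted p = 0.00356) and without control 48 h library 4 (adjusted p = 0.00808), and the adjusted p ranged from 1.31e-06 to 0.135 over the alternatives. *vhp-1*, a phosphatase of JNK and p38 kinases, had means of 152 and 211 RPKM (0.47, adjusted p = 0.2, and 0.0248 after scaling), also without overlap. In the controls *fos-1* changed by 0.51 and *vhp-1* by 0.52, and neither difference passed the test.

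*lys-3*, a lysozyme, had means of 78.9 ± 18.9 and 52.2 ± 13.1 RPKM (SD, n = 4; -0.60, adjusted p = 0.111, exact permutation p = 0.0857). It passed without injured 96 h library 2 (adjusted p = 0.045) and without control 48 h library 4 (adjusted p = 0.0249), and the difference of -1.20 from the controls (8.88 to 12.7 RPKM) passed with adjusted p = 0.0136. *cdc-25.1*, the RNAi target, had means of 91.7 ± 34.9 and 176 ± 60.7 RPKM (SD, n = 4) in injured worms and 20.2 and 67.1 RPKM in the controls, and its change with time did not pass the test (0.94 ± 0.60, adjusted p = 0.407, and 0.0425 with the 8 libraries alone). *cat-2*, the tyrosine hydroxylase of dopamine synthesis, measured 1.58, 1.06, 0.92 and 0.72 RPKM at 48 h and 1.08, 2.05, 1.73 and 1.90 RPKM at 96 h (0.48, adjusted p = 0.254, and 0.046 after scaling), so the groups overlapped. The shares of all features were 6.69% lower and 2.67% higher, or 8.56% and 9.16% after scaling. Of 18 dopamine genes 3 fell and none rose (4 and 1 after scaling). They were *dop-1*, a dopamine receptor (2.81 to 1.47 RPKM), *bas-1*, the aromatic amino acid decarboxylase (8.41 to 4.81 RPKM), and *amx-2*, a monoamine oxidase (8.14 to 4.93 RPKM). That count was 0 without injured 48 h library 2, 3 or 4 or injured 96 h library 3 or 4, and 1 without injured 96 h library 1.

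The fallers were unevenly spread over the chromosomes. Of the features tested 9.98% were lower on chromosome V, 8.71% on X and 8.68% on IV, against 5.95% on II, 3.38% on III and 2.70% on I. The share of risers was 2.03 to 2.94% on each of these. Among annotated classes 7 of 56 lincRNA genes, 7 of 63 other ncRNA genes and 26 of 313 pseudogenes rose, against 330 of 13988 protein-coding genes.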

How the data were processed

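Poly(A) RNA of whole worms was sequenced as paired-end reads, and the authors mapped the reads with CLC Genomics Workbench to ce11, the build named in the submitters' processing notes, and deposited RPKM values. Mapping settings, annotation release and strand setting are not given in the sources used here, so overlapping and near-identical genes are uncertain. The deposited table also holds p-values and adjusted p-values of the authors' own comparisons, which were not used. Of 46739 features, 40752 had a symbol in the annotation of the same assembly, 3796 a sequence name in it and 2191 neither.

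Values were analysed as log2(RPKM + 0.5) for features that reached 1 RPKM in 4 or more of the 24 libraries, so fold changes of low genes are understated. All 6 groups entered a single limma fit without covariates (limma 3.58.1, R 4.3.3, eBayes with trend and robust), with Benjamini-Hochberg adjustment over all features tested and a threshold of 0.05, two-sided. Single genes were also compared by a two-sided exact permutation test over 70 arrangements. The procedure was tested on simulated data. Depth was estimated from whole-read steps within 0.1 of a read, since mapped totals were not used here. The data.table package (version 1.17.8), Python 3.11.15, numpy 2.4.6, pandas 2.3.3 and matplotlib 3.10.9 were used.

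The members, the 64 gene lists and the tests were chosen with earlier results of these data known. The rule named *cdc-25.1*, *fos-1*, *lys-3*, *vhp-1* and *cat-2*, the 10 largest rises and falls and the 5 most positive and most negative differences from the controls among called, non-overlapping features with a mean RPKM of at least 5, the 5 most abundant features other than rRNA, and, from lists in which at least 4 members and 1 in 3 passed, the 3 members of smallest p. Up to 2 members of each other list with at least 5 called, 2 further lists (nspc peptides and long intergenic noncoding RNAs) and other genes given with values were chosen after their values were seen. Alternatives covered scaling, pseudocounts of 0.1 and 1, filters, the libraries in the fit, array weights, moderation and leaving out each library. Sequences were not used here.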

Additional observations from a re-analysis of the deposited data

Results flagged for a closer look

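For 52 of 81 named genes the change from 48 to 96 h differed between injured worms and controls by the test of the difference itself in limma, where 0.662% of all features had a positive and 14.3% a negative difference. Most of the 81 genes were chosen for their change in injured worms, which is a term of the difference. Some were chosen for the difference itself. The choice favours genes with a difference, so 52 of 81 cannot be set against the shares of all features. After scaling 44 of the 52 kept the call, and *lys-1*, *cyp-34A8*, *grd-3*, *mlc-1*, *lev-11*, *hacd-1*, *cpr-4* and *asp-6* lost it. Among chaperone genes the log2 difference, injured minus controls, was 2.07 for *hsp-70*, 2.41 for *F44E5.4*, 2.1 for *F44E5.5*, 1.12 for *hsp-110*, 2.06 for *hsp-16.41*, 1.81 for *hsp-16.2*, 1.89 for *hsp-16.11* and 1.84 for both *hsp-16.48* and *hsp-16.49*. Other positive differences were 1.93 for *K04H4.5*, 2.12 for *Y53F4B.7*, 2.45 for *Y53F4B.8*, 2.49 for *F13E9.19*, 2.33 for *ZK228.4*, 1.66 for *nhr-17*, 1.12 for *pqn-44* and 1.01 for *linc-11*. Among defence genes the difference was -1.83 for *C17H12.8*, -2.39 for *F55G11.4*, -2.03 for *clec-41*, -1.21 for *lys-1*, -1.20 for *lys-3*, -3.05 for *ilys-2*, -3.61 for *ilys-3* and -2.57 for *abf-4*. For detoxifying enzymes it was -1.68 for *cyp-34A2*, -1.06 for *cyp-34A8*, -1.54 for *ugt-13*, -1.34 for *ugt-2*, -1.44 for *gst-4* and -1.63 for *gst-13*. Among secreted, muscle and metabolic genes it was -1.34 for *far-2*, -1.40 for *C08F11.11*, -1.83 for *ttr-51*, -1.14 for *grd-3*, -0.99 for *mlc-1*, -1.04 for *lev-11*, -2.42 for *pqn-31*, -1.23 for both *hacd-1* and *cpr-4* and -1.41 for *asp-6*. The remaining differences were -1.41 for *nhr-140*, -2.72 for *nlp-39*, -1.99 for *nspc-5*, -2.42 for *nspc-12*, -2.90 for *C54C8.12*, -3.27 for *C08E3.1*, -2.23 for *C01G10.6*, -3.45 for *C01G10.5*, -3.29 for *C01G10.4*, -3.88 for *Y60C6A.2* and -3.30 for *C54F6.15*.

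A single library lay far from the other 3 of its group in 18 of 324 groups examined, where chance flags about 1 in 20. Injured 48 h library 2 was high for *hsp-70* (40.7 RPKM), *F44E5.4* (625 RPKM), *ZK228.4* (21.4 RPKM), *lys-3* (107 RPKM) and *ugt-13* (28.3 RPKM), and injured 48 h library 4 for *C17H12.8* (156 RPKM) and *ilys-3* (59.7 RPKM). Injured 96 h library 2 was high for *fos-1* (82.3 RPKM). Control 48 h libraries gave *ilys-3* at 6.45 RPKM and *abf-4* at 0.87 RPKM. Control 96 h libraries gave *hsp-16.41* at 281 RPKM, *hsp-16.11* at 749 RPKM, *Y53F4B.7* at 2.68 RPKM, *F44E5.5* at 92.4 RPKM, *dod-22* at 7.21 RPKM, *clec-41* at 425 RPKM, *ttr-42* at 21.6 RPKM and *linc-11* at 34.1 RPKM.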

How the results depend on the processing

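No paired analysis was possible because the columns of the deposited table carry no replicate numbers. The number of features changed in injured worms was 1386, and 2625 after median-of-ratios scaling, 2598 after quantile normalization, 2245 with the 8 libraries alone, 2814 without the rRNA-rich control 48 h library, 7588 with array weights and 630 to 1621 with each library left out. Risers were 395, and 1357, 1310, 764, 734 and 2009 under the same 5 settings and 237 to 367 with each library left out. Fallers were 991, and 2080 without the rRNA-rich library, 5579 with array weights and 354 to 1314 with each library left out. In the controls 1915 features changed, and 3116 after quantile normalization, 1185 with their 8 libraries alone, 963 without the rRNA-rich library, 5019 with array weights and 963 to 3820 with each library left out. The difference was called for 2209 features, 5727 with array weights and 1222 to 3619 with each library left out. Scaling was combined with other sets of libraries after seeing the data. Scaled and without the rRNA-rich library, 2544 features changed in injured worms, 1341 of them higher, and 1358 had a different change. Scaled and with only the libraries compared, 1155 were higher and 637 lower in injured worms, and 4363 changed in the controls. The other pseudocounts, filters and moderation moved none of these counts by over 1.5 times. Of the 81 named genes 72 were called, 60 of them in every setting run, which were 20 for 75 genes and 19 for 6 genes that a stricter filter removed, and none reversed in any. A call lost with fewer libraries comes with fewer samples, and the causes of the other shifts were not tested. At about 19887500 to 25762500 reads, depth limits genes near 1 RPKM most.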

Other observations

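Counts for other families stand beside 2.67% higher and 6.69% lower over all features, or 9.16% and 8.56% after scaling. Of 158 F-box A genes, which encode substrate adaptors of ubiquitin ligases, 10 rose and 7 fell (21 and 13 after scaling), led by *fbxa-140* (12.1 ± 3.2 to 30.8 ± 1.33 RPKM, SD, n = 4, log2 change 1.35) and *fbxa-155* (7.42 to 19.6 RPKM, 1.32). Both also rose in the controls (0.87 and 1.14), and neither difference passed the limma test as deposited. The count of F-box fallers was 2, 3 and 2 without injured 48 h libraries 2, 3 and 4, 1, 4 and 2 without injured 96 h libraries 1, 3 and 4, and 16 without control 48 h library 4. Of 194 nuclear hormone receptor genes 4 rose and 13 fell (17 and 18 after scaling), shares near those of all features as deposited, among them *nhr-140* (4.02 to 1.74 RPKM, -1.03), and without control 48 h library 4 the counts were 10 and 31. The risers were 2, 2 and 1 without injured 48 h libraries 1, 3 and 4 and 2 without injured 96 h library 2 or 4. The fallers were 2, 5 and 2 without injured 48 h libraries 2, 3 and 4 and 8, 5 and 3 without injured 96 h libraries 1, 3 and 4.

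Of 30 FMRFamide-like peptide genes 3 rose (*flp-25*, *flp-34* and *flp-5*) and none fell, or 7 rose without control 48 h library 4. After scaling 9 rose and 1 fell, and in the controls 15 rose as deposited and 4 after scaling. Of 42 nlp genes 2 rose and 3 fell (3 and 3 after scaling), also near the shares of all features, with *nlp-2* from 8.96 ± 3.24 to 23.7 ± 2.21 RPKM (SD, n = 4, 1.42) and *nlp-16* from 30.1 to 15.9 RPKM (-0.90), and 1 rose without injured 48 h library 4. Among 58 hedgehog- and patched-related genes, which act in the epidermis and cuticle, 8 fell and 2 rose (9 and 3 after scaling), including *grd-3* (32.8 to 15.5 RPKM, -1.05) and *ptr-17* (1.06 to 3.12 RPKM, 1.17). The risers were 1 without injured 48 h library 4 or injured 96 h library 3. The fallers were 4, 5 and 5 without injured 48 h libraries 2, 3 and 4, 5, 4 and 5 without injured 96 h libraries 1, 3 and 4, and 16 without control 48 h library 4. Of 48 long intergenic noncoding RNAs, listed after their values were seen, 6 rose and 1 fell (9 and 2 after scaling), among them *linc-7* (5.92 to 25.8 RPKM, 2.02) and *linc-11* (20.5 to 47.6 RPKM, 1.18), and 3 rose without injured 48 h library 1. Of 56 abu and pqn genes 10 fell and 2 rose, or 11 and 5 after scaling, or 14 and 4 without control 48 h library 4. The lipase gene *lips-13* fell from 18.6 ± 13.7 to 3.13 ± 2.18 RPKM (SD, n = 4, -2.25) and rose in the controls from 2.73 to 14.4 RPKM (2.23), a difference of -4.48 (adjusted p = 0.0012), with overlapping injured libraries.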
